A study of Mus musculus with 8 samples.

Results

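The genes described here encode 4 families of enzymes that oxidise or conjugate foreign chemicals: the flavin-containing monooxygenases (FMO), UDP-glucuronosyltransferases (UGT), sulfotransferases (SULT) and glutathione S-transferases (GST). They were chosen by gene symbol alone, as every symbol starting with Fmo and a digit, with Ugt1a, Ugt2a, Ugt2b or Ugt3a, with Sult1 to Sult6, or with Gst, a class letter from a, k, m, o, p and t, and a digit. This gave 66 of the 24151 genes in the files, made up of 7 FMO, 20 UGT, 19 SULT and 20 GST genes. The levels come from 8 RNA sequencing libraries of embryonic kidney from mice of the outbred ICR strain. Pregnant mice, mated at 8 weeks of age, were given chlorpyrifos (CPF), an organophosphate insecticide, at 5 mg/kg under the skin every day from gestation day 7.5 to 11.5, or the same volume of the solvent dimethyl sulfoxide (DMSO). Kidneys were taken at 4 embryonic stages 2 days apart, the first E12.5 and the last E18.5, with 1 CPF and 1 DMSO library at each stage, so every library postdates the last dose. The number of embryos or litters behind each library is not stated in the labels used.

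FMO enzymes add oxygen to nitrogen and sulfur atoms of drugs and pesticides. UGT enzymes attach glucuronic acid from UDP-glucuronic acid, SULT enzymes attach sulfate from the donor PAPS, and GST enzymes attach glutathione, which makes the products more soluble and easier to excrete. In the adult kidney these enzymes are best known from the proximal tubule, where conjugates are also exported into urine, and the pyridinol product of chlorpyrifos leaves the body largely as glucuronide and sulfate conjugates.

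The 8 Ugt1a genes lie nested on chromosome 1 (chr1:88055411-88220002, GRCm38), where each has a first exon and a start of its own and all share the last exons, so the first exon and the bases in front of it are what sets each gene apart. The 250 bases before the start are shown for Ugt1a10 and Ugt1a2, the Ugt1a genes with the highest levels, for their low neighbours Ugt1a9 and Ugt1a1, and for Sult1d1, which had the largest change with stage of all the genes described. They are RefSeq sequences of build GRCm38.p6, each on the strand of its gene, and capitals mark GTTAAT or its reverse complement, a short motif that was searched for. The windows are chr1:88055161-88055410 on the plus strand for Ugt1a10, chr1:88070529-88070778 (plus) for Ugt1a9, chr1:88200361-88200610 (plus) for Ugt1a2, chr1:88211709-88211958 (plus) for Ugt1a1 and chr5:87569007-87569256 on the minus strand for Sult1d1.
Ugt1a10: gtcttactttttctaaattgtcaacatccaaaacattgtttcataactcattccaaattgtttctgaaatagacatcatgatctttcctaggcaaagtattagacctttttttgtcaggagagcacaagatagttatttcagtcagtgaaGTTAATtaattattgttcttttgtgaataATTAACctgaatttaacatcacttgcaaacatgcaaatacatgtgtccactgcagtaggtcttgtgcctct
Ugt1a9: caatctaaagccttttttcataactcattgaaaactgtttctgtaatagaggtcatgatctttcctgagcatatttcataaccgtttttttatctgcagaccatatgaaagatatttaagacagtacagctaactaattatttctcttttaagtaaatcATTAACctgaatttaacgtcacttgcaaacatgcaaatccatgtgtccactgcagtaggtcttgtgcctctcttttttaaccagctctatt
Ugt1a2: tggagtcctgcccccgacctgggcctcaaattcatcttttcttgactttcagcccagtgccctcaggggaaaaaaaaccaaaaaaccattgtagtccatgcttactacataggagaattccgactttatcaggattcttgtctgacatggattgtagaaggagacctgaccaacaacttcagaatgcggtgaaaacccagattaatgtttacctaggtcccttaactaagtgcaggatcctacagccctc
Ugt1a1: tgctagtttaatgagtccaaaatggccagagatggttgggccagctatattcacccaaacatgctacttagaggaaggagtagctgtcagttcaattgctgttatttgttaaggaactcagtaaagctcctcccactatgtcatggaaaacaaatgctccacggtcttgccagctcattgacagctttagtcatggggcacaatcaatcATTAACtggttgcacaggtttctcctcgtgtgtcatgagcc
Sult1d1: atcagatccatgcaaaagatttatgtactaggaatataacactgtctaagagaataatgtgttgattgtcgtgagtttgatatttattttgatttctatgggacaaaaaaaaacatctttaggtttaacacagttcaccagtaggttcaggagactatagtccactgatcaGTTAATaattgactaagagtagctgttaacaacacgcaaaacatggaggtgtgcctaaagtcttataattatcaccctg
Gstm5, one of the most abundant of the 66 genes and not called for a change with stage, is shown for contrast (chr3:107895604-107895853, plus strand), with capitals marking TGACNNNGC, the core of the antioxidant response element bound by NRF2.
Gstm5: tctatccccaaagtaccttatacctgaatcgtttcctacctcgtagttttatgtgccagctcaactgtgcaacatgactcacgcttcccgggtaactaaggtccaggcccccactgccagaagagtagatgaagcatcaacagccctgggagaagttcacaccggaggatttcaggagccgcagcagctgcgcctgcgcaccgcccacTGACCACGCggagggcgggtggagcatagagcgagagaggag

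The GTTAAT motif stood 100 and 71 bases before the start of Ugt1a10, 91 before that of Ugt1a9, 41 before that of Ugt1a1 and 79 before that of Sult1d1, counted to the first base of the match, and these letters were not in the window of Ugt1a2. RefSeq promoters were found for 56 of the 66 genes, and the GTTAAT motif, searched on both strands, was in 2 of the 13 genes that rose with stage, 3 of the 19 others that were tested and 9 of the 24 that were too low to test, against 7.49% of 27025 genes. The antioxidant core was in 0, 2 and 1 of these sets against 11.5% of all genes, and GCGTG, the core of the element bound by the aryl hydrocarbon receptor, was in 3, 4 and 1 against 30.9%. In Gstm5 the antioxidant core, 42 bases before the start, overlaps a GCGTG match on the other strand. These matches describe letters only.

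Expression was read as TPM (transcript abundance scaled to a fixed total), which corrects for transcript length and sums to 1000000 in each library. Of the 66 genes, 23 averaged 5 TPM or more over the 8 libraries, 12 had a mean between 1 and 5, and 31 a lower mean. A gene entered the tests when it reached 1 TPM in at least 2 libraries, which 37 of the 66 did: 3 FMO, 12 UGT, 9 SULT and 13 GST genes. Differences are given on the log2(TPM + 1) scale with their standard error from limma, and a gene was called where the Benjamini-Hochberg adjusted p over all 13677 tested genes was under 0.05. The 1 added to each value shrinks the differences of low genes. Levels between genes are compared in TPM.

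The libraries differ in ways that touch these values. The 2 noncoding RNAs Rpph1 and Rmrp took 19.3 to 21.8% of TPM in the CPF libraries but 19.6, 23.6, 30.99 and 41.8% in the DMSO libraries by stage, and since TPM sums to a fixed total the other genes of the late DMSO libraries are lower by that share. The median CPF minus DMSO difference over all tested genes was 0.53 at E18.5, and 0.14 when TPM was rescaled to coding transcripts alone. General kidney markers, 10 in number, were above 0 in all 8 libraries. Their sum was 568, 375, 407 and 292 TPM in the DMSO and 343, 240.0, 316 and 466 TPM in the CPF libraries by stage, lower in CPF up to E16.5 and higher at E18.5, and 3 of 10 lay above 0 in CPF minus DMSO, with 0 called. The sum of 13 liver markers was 23.2, 1048, 73.7 and 45.8 TPM in the DMSO libraries by stage and 221, 5252, 6286 and 1132 TPM in the CPF libraries, so the E14.5 and E16.5 CPF libraries stood apart. Genes for which RefSeq lists several transcripts are mostly near 0 in these files, Gapdh included (at most 0.926 TPM), so the low values of Fmo5, Gsta3, Gstm4, Gsto2 and Sult2a8 are listed values and no measure of expression. The steps between low values imply depths of 19.6 to 27.7 per library in units of 1000000 reads, with 70.2 to 72.8% of low values whole reads within 0.05.

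The summed levels of the FMO, UGT and SULT genes were higher at E18.5 than at E12.5 in both agents, while the GST genes, the most abundant of the 4 families, stayed within a narrow range in the DMSO libraries. Summed over each family, the DMSO libraries from E12.5 to E18.5 held 1.15, 25.3, 40.3 and 60.8 TPM of FMO, 1.13, 17.0, 72.6 and 99.1 TPM of UGT and 18.54, 49.5, 155 and 250.5 TPM of SULT transcripts. The GST sum was 675, 769.8, 659.6 and 653 TPM. The CPF libraries held 16.8, 41.4, 64.4 and 276 TPM of FMO, 5.08, 46.6, 114 and 224 TPM of UGT, 31.3, 56.7, 107 and 450.4 TPM of SULT and 709.7, 788, 1052 and 1011 TPM of GST transcripts. The CPF sum was above the DMSO sum of the same stage in every family and at every stage except SULT at E16.5, with no replicate at any stage. With TPM rescaled to coding transcripts the GST sum at E14.5 was also lower in CPF (1084 against 1105 TPM), and the GST sum of the DMSO libraries went from 898 TPM at E12.5 to 1224 at E18.5.

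**Figure D1:**
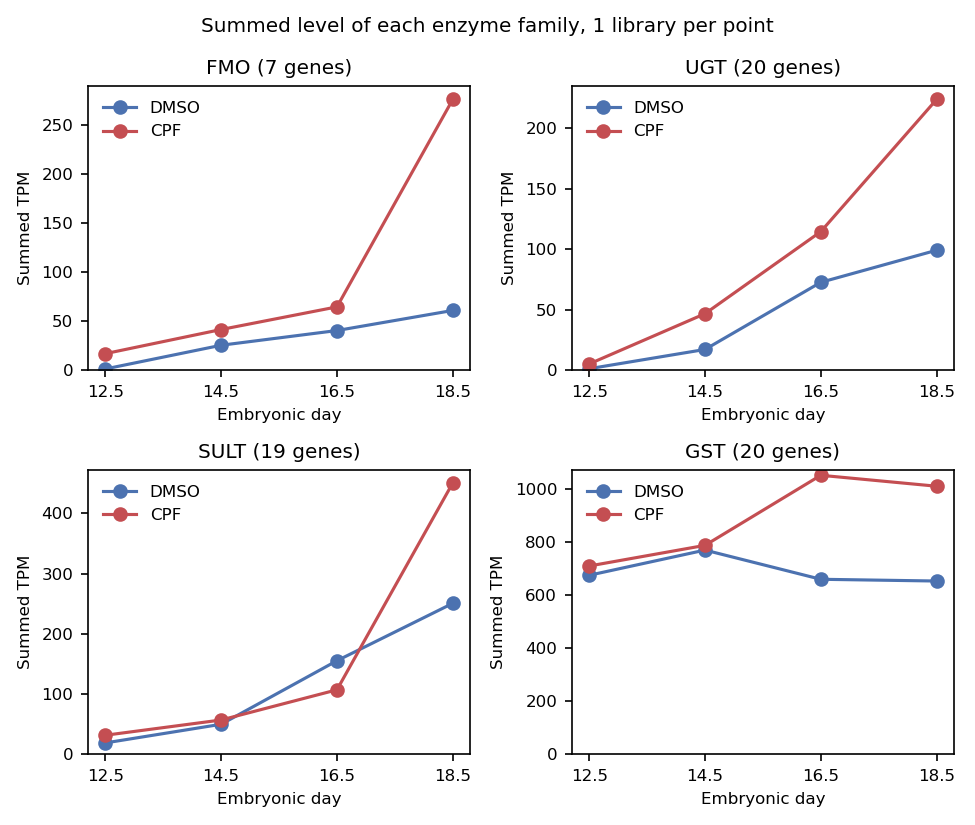
Summed TPM of each enzyme family (vertical axes from 0) against embryonic day, 1 library per point, DMSO in blue and CPF in red. FMO, UGT and SULT sums climb with stage in both agents, and the GST sum stays between 653 and 1052 TPM.

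Of the 37 tested genes, 16 rose from E12.5 to E18.5 by limma with adjusted p under 0.05 and 0 fell, while over all 13677 tested genes 4.67% rose and 3.73% fell. By family 3 of 3 FMO, 7 of 12 UGT, 3 of 9 SULT and 3 of 13 GST genes rose. With TPM rescaled to coding transcripts, 19 of 42 tested genes rose and 0 fell, while over all 14582 genes 1007 rose and 404 fell, against 639 and 510 as deposited. The median stage difference was 1.21 over the 37 genes and -0.21 over all tested genes, and that of all genes was -0.0055 after the rescaling. In these whole-kidney libraries more cells of a type and more RNA per cell cannot be told apart. A count over tested genes leans towards rises here, because 17 of the 37 were under 1 TPM in both E12.5 libraries and passed the filter through later stages, 11 of them among the 12 UGT genes. Each stage has 1 library per agent, and the fit has 3 residual degrees of freedom. Its p-values measure how far the libraries depart from a common stage course with a fixed gap between agents, not the spread between animals.

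**Figure D2:**
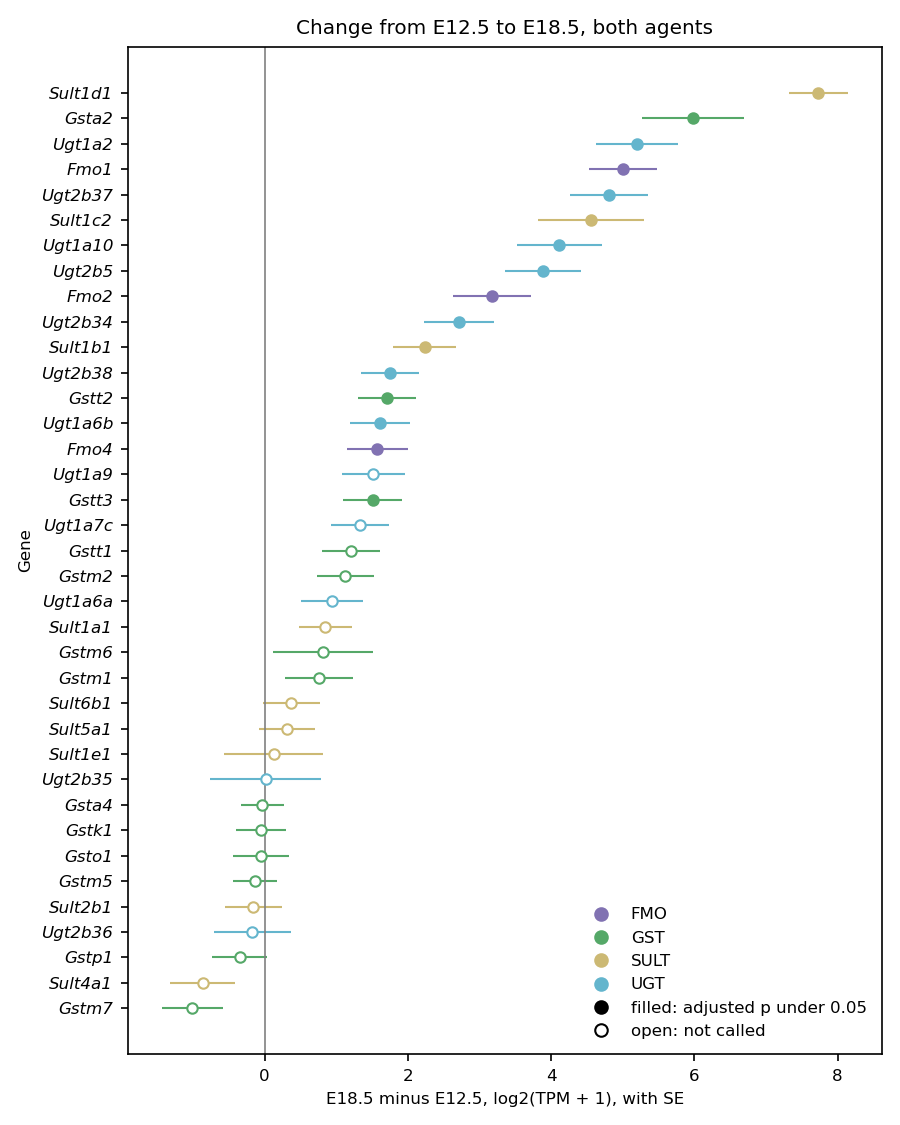
Difference between E18.5 and E12.5 on the log2(TPM + 1) scale, averaged over the agents, for the 37 tested genes in order of size, with bars of 1 standard error from limma. The 16 filled points passed adjusted p under 0.05 and all lie to the right of 1.5, and most open points between -0.5 and 1 are GST or SULT genes.

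Fmo1, the form best known from rodent kidney, was the most abundant FMO gene from E16.5 on. It stood at 0.313, 9.81, 29.0 and 40.1 TPM in the DMSO libraries, by stage, and at 5.31, 17.6, 44.0 and 206 TPM in the CPF libraries. Every later library was above both E12.5 libraries, and CPF was the higher of the pair at each stage. Fmo1 rose with stage by 5.00 ± 0.47 (adjusted p = 0.0001004, limma), by 4.97 in the DMSO and 5.03 in the CPF libraries.

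Fmo2, known as the lung form, was the most abundant FMO gene at E14.5 in both agents and in the E12.5 CPF library. It stood at 0.363, 13.4, 8.96 and 18.6 TPM in the DMSO libraries and at 10.6, 20.6, 17.6 and 65.2 TPM in the CPF libraries over the same stages. The E12.5 DMSO library was the one near 0, and the levels at E12.5 CPF and E16.5 DMSO were close to each other. The rise with stage was 3.18 ± 0.54 (adjusted p = 0.00504, limma), and it was not called without the E18.5 CPF library (adjusted p = 0.0889), without the E18.5 DMSO library (0.0640) or with a pseudocount of 0.1 (0.0515). Fmo4 was low, at 0, 1.05, 1.51 and 0.989 TPM in the DMSO and 0.227, 2.27, 2.32 and 4.46 TPM in the CPF libraries. It rose by 1.57 ± 0.43 (adjusted p = 0.0393, limma), a call lost without the E12.5 CPF, E18.5 CPF or E12.5 DMSO library (adjusted p = 0.205, 0.161 and 0.0665) and with no filter (0.103). These 3 genes lie in a stretch with 6 FMO genes (chr1:162793188-166681845, GRCm38). Fmo6 reached 0.951 TPM at most and Fmo9 0.165, and Fmo5 was listed at 0 in all 8 libraries.

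CPF was above DMSO at all 4 stages for each of the 3 tested FMO genes, as it was for 13.8% of all tested genes. The gap in Fmo1 was 17.0-fold at E12.5 and 5.12-fold at E18.5, but 1.79-fold and 1.52-fold between them. In Fmo2 it was 29.2-fold, 1.54-fold, 1.96-fold and 3.51-fold from E12.5 to E18.5. The E12.5 ratios rest on low DMSO levels, about 9.2 reads for Fmo1 and 18.2 for Fmo2 by the estimated steps. Fmo4 had about 4.0 reads in the CPF and 0 in the DMSO library of E12.5. Blood and muscle markers differed between the same libraries. The 10 erythroid markers summed to 36805, 17519, 877 and 28.0 TPM in the CPF and 8053, 4036, 591 and 65.3 TPM in the DMSO libraries, by stage, and 9 skeletal muscle markers to 489, 374, 95.1 and 14.1 TPM and 120.0, 154, 57.5 and 7.18 TPM. All 5 tested erythroid and all 7 tested muscle markers lay above 0 in CPF minus DMSO, and 0 were called, while the adult globin genes Hba-a1 and Hbb-bt were at 0 throughout. Their part in the FMO values was not tested. Over the 4 stages the difference was 1.49 ± 0.33 for Fmo1 (adjusted p = 0.116), 1.58 ± 0.38 for Fmo2 (0.146) and 0.71 ± 0.30 for Fmo4 (0.471) by limma, so none was called. Fmo1 and Fmo2 did pass without the E14.5 pair of libraries (adjusted p = 0.00219 and 0.00113, limma) and when only genes with at least 5 TPM in 2 libraries were tested (0.0252 and 0.0436). Without the E14.5 pair 222 of all genes were called, against 22 in the main fit. These were 2 of 12 alternative settings for each gene, and adjusted p reached 0.498 and 0.520 in others. Neither gene passed with quantile normalization or with rescaling to coding transcripts.

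**Figure D3:**
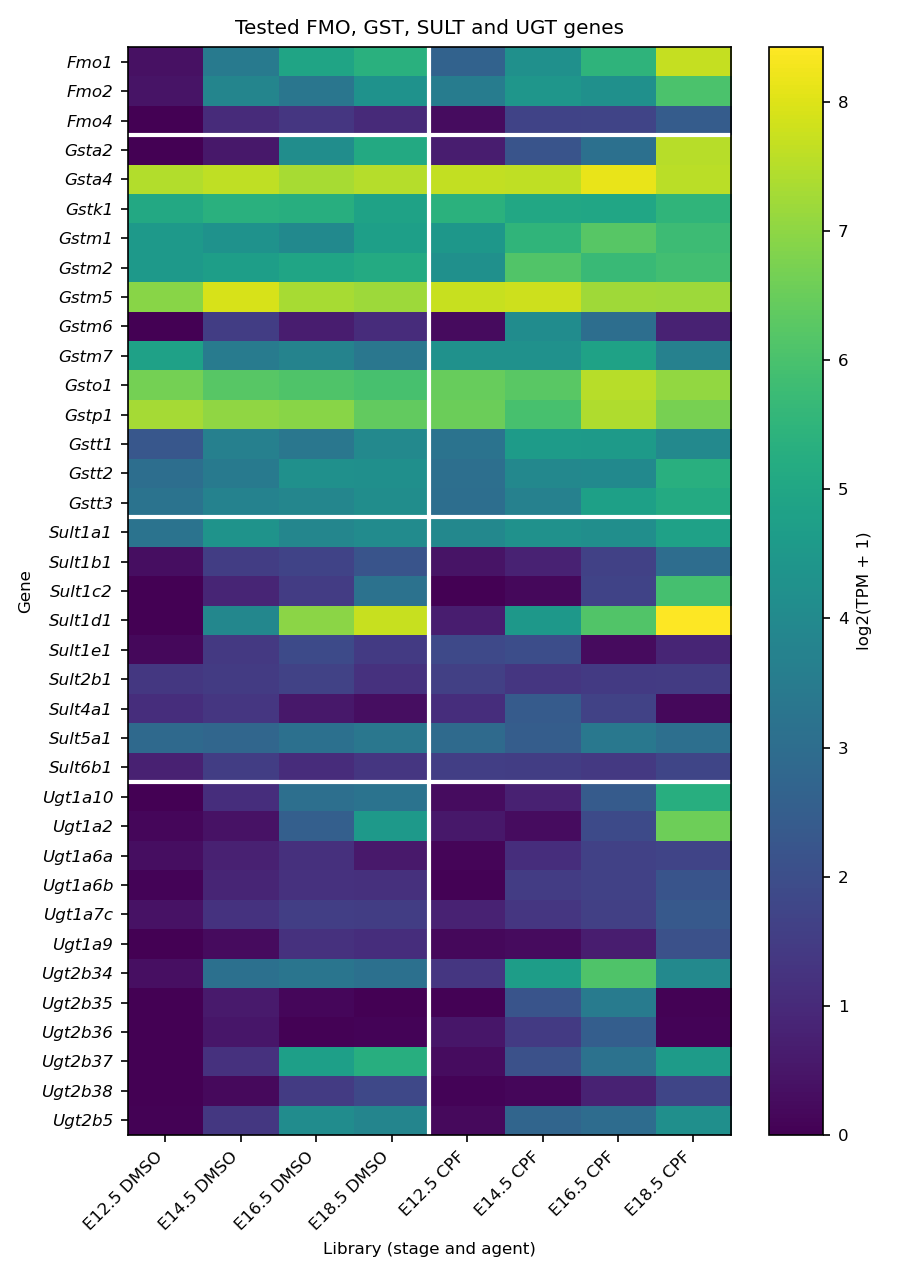
Level of the 37 tested genes (rows, by family) in each of the 8 libraries (columns, DMSO left and CPF right, by stage), as log2(TPM + 1). Fmo1 and several UGT and SULT genes go from darker at E12.5 to brighter at E18.5, whereas Gsta4, Gstm5, Gsto1 and Gstp1 are bright throughout.

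The UGT genes were low at E12.5: the 20 genes together gave 1.13 TPM in the DMSO and 5.08 TPM in the CPF library. At E14.5 Ugt2b34 led in both agents, and by E18.5 the lead had passed to Ugt2b37 in the DMSO library (38.4% of the family's TPM) and to Ugt1a2 in the CPF library (41.5%). Ugt1a2 stood at 0.101, 0.338, 4.86 and 22.4 TPM in the DMSO libraries, by stage, and at 0.472, 0.205, 2.73 and 92.9 TPM in the CPF libraries. It was under 1 TPM until E14.5 in both agents. It rose with stage by 5.20 ± 0.57 (adjusted p = 0.000323, limma).

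Ugt1a10 was likewise highest in the E18.5 CPF library, with 0, 1.15, 7.50 and 8.32 TPM in the DMSO and 0.218, 0.697, 4.35 and 38.3 TPM in the CPF libraries, and rose by 4.12 ± 0.60 (adjusted p = 0.00194, limma). In both genes CPF was below DMSO at E14.5 and E16.5 and above it at E18.5, by 4.15-fold in Ugt1a2 and 4.61-fold in Ugt1a10. Ugt1a6b, a phenol-conjugating form, was lower, at 0.0704, 0.817, 1.32 and 1.27 TPM in the DMSO and 0.0441, 1.85, 2.09 and 3.61 TPM in the CPF libraries. It rose by 1.61 ± 0.41 (adjusted p = 0.0314, limma), a call lost without the E12.5 CPF (0.208) or E18.5 CPF library (0.127) and with no filter (0.0793). The rest of the locus was lower still: Ugt1a7c ranged over 0.342 to 4.10 TPM and Ugt1a6a over 0.0918 to 2.34, while Ugt1a9 reached 3.25, Ugt1a1, the bilirubin-conjugating form, 2.66 and Ugt1a5 0.815 TPM, each in the E18.5 CPF library. The shared exons make the division of reads among these genes uncertain: 75.4% of the 31-base words of Ugt1a10, 65.1% of those of Ugt1a2, 85.1% of those of Ugt1a6b and all of those of Ugt1a6a also occur in other genes' transcripts. Both Ugt1a10 and Ugt1a9 carry the GTTAAT motif in the sequences shown, and their levels in the E18.5 CPF library were 38.3 and 3.25 TPM.

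Ugt2b enzymes conjugate steroids and bile acids among other substrates. With stage 4 of the 6 tested Ugt2b genes rose, against 4.67% of all tested genes, and 5 of the 6 were under 1 TPM in both E12.5 libraries. Ugt2b37 stood at 0, 1.31, 26.2 and 38.0 TPM in the DMSO libraries, by stage, and at 0.215, 3.26, 8.04 and 23.6 TPM in the CPF libraries. DMSO was the higher of the pair at E16.5 and E18.5 and the lower at E12.5 and E14.5. Its rise was 4.81 ± 0.55 (adjusted p = 0.000356, limma). Ugt2b5, its neighbour, stood at 0.0426, 1.56, 16.0 and 13.4 TPM in the DMSO and 0.160, 5.73, 6.95 and 17.4 TPM in the CPF libraries and rose by 3.89 ± 0.53 (adjusted p = 0.000927, limma). Ugt2b38, with 0, 0.156, 1.78 and 2.54 TPM in the DMSO and 0.0534, 0.0996, 0.729 and 2.38 TPM in the CPF libraries, rose by 1.75 ± 0.40 (adjusted p = 0.0184, limma). That call was lost without the E12.5 CPF, E18.5 CPF, E12.5 DMSO or E18.5 DMSO library (adjusted p = 0.0601, 0.0814, 0.105 and 0.0508). These 3 genes share sequence (34.4, 56.4 and 52.9% of 31-base words occur in other genes), so reads may be split between them.

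Ugt2b34 took a different course. It stood at 0.264, 7.63, 8.78 and 7.70 TPM in the DMSO libraries, by stage, and at 1.52, 24.8, 67.8 and 14.7 TPM in the CPF libraries. The CPF library was the higher at every stage, and the E16.5 CPF library was the highest of all. Its rise from E12.5 to E18.5 was 2.71 ± 0.49 (adjusted p = 0.00486, limma), with adjusted p = 0.0530 when no filter was set, and it was not called for a slope with embryonic day as a linear term. The CPF minus DMSO difference over the stages, 1.56 ± 0.34, had the lowest adjusted p of the 37 genes (0.105, limma) and was not called. Ugt2b35 and Ugt2b36 were likewise highest in the E16.5 CPF library, at lower levels. Ugt2b35 reached 3.59 TPM at E14.5 and 10.4 at E16.5 in the CPF libraries, with at most 0.528 TPM in the other 6 libraries. Ugt2b36 reached 1.70 and 4.69 TPM in these 2 CPF libraries and at most 0.429 elsewhere.

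The 2 CPF libraries where Ugt2b34, Ugt2b35 and Ugt2b36 were highest are those with the most liver and adrenal cortex marker RNA. The 13 liver markers summed to 5252 and 6286 TPM there, against 1048 and 73.7 TPM in the DMSO libraries of E14.5 and E16.5. Albumin (Alb) stood at 60.9, 1668, 2036 and 373 TPM in the CPF and 3.89, 278, 5.77 and 2.03 TPM in the DMSO libraries by stage. Of the liver markers 12 could be tested, all 12 lay above 0 in CPF minus DMSO (median 3.62), and 1 (Ambp) was called. Ahsg, one of the genes with several transcripts, was at 0 throughout. The 9 adrenal cortex markers summed to 87.6, 766, 767 and 173 TPM in the CPF and 54.6, 104, 118 and 72.9 TPM in the DMSO libraries, with 8 of 8 tested above 0 and 1 (Akr1b7) called. In these 2 libraries 1 of the liver markers and 0 of the adrenal markers were at 0. Markers of pancreas were highest in the E16.5 CPF library and those of gonad and germ cells in the E14.5 CPF library. The 7 pancreas markers summed to 11.9, 10.1, 679 and 42.1 TPM in the CPF and 16.6, 6.43, 6.96 and 10.1 TPM in the DMSO libraries, with 2 of 2 tested above 0. The 9 gonad and germ cell markers summed to 27.0, 308, 62.0 and 78.5 TPM in the CPF and 37.4, 25.2, 31.5 and 31.7 TPM in the DMSO libraries, with 6 of 7 tested above 0. In the E16.5 CPF library 1 pancreas marker, Ins2, was at 0, and in the E14.5 CPF library 0 of the gonad markers were. Without both pairs of E14.5 and E16.5 libraries, the CPF minus DMSO difference was 0.93 for Ugt2b34, 2.30 for Fmo1 and 2.42 for Fmo2. In that fit 0 of the 37 genes were called by limma. It averages the E12.5 and E18.5 pairs alone and does not leave the liver RNA out. The liver markers summed to 221 and 1132 TPM in those CPF libraries, against 23.2 and 45.8 TPM in the DMSO libraries. The part of liver, adrenal or other such cells in the UGT and FMO values was not tested.

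**Figure D4:**
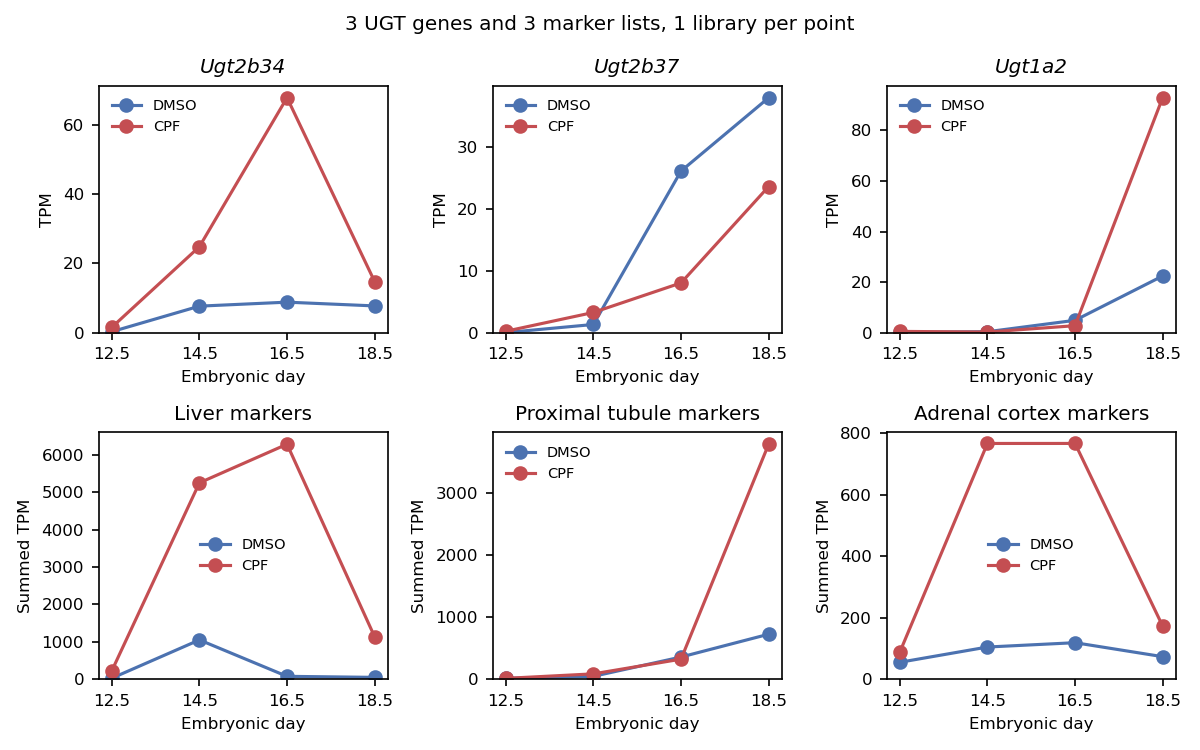
TPM of Ugt2b34, Ugt2b37 and Ugt1a2 (top) and summed TPM of the liver, proximal tubule and adrenal cortex marker lists (bottom) against embryonic day, 1 library per point, DMSO in blue and CPF in red. Ugt2b34 peaks at 67.8 TPM in the E16.5 CPF library, where liver markers sum to 6286 TPM, and Ugt1a2 reaches 92.9 TPM in the E18.5 CPF library, where proximal tubule markers sum to 3785 TPM.

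The remaining UGT genes were low in most libraries. Ugt3a2 was at most 0.998 TPM in 7 libraries and 16.2 TPM in the E18.5 CPF library, so it missed the filter and was not tested. Ugt3a1 reached 1.13 TPM, Ugt2b1 0.397, Ugt2a3 0.351 and Ugt2a1 0.244, and Ugt2a2 was listed at 0 in all libraries. Of the 31-base words of Ugt2a1 and Ugt2a2, 97.8 and 94.6% occur in other genes, so the low values of both are uncertain.

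Among the sulfotransferases the kidney went from a low mix led by Sult1a1 to one led by Sult1d1. Sult1d1, which in mice sulfonates catecholamines and other phenols, stood at 0, 13.8, 122 and 208 TPM in the DMSO libraries, by stage, and at 0.592, 21.5, 69.7 and 343 TPM in the CPF libraries. Both E12.5 libraries were under 1 TPM and both E18.5 libraries above 200 TPM. Its rise of 7.73 ± 0.41 (adjusted p = 9.77e-07, limma) was nearly the same in the DMSO (7.71) and CPF libraries (7.75). At E18.5 it made up 83.1% of SULT TPM in the DMSO and 76.1% in the CPF library, and 0% of its 31-base words occur in other genes.

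Sult1c2, a form known from stomach and kidney, was seen late, at 0, 0.810, 1.85 and 7.99 TPM in the DMSO and 0, 0.129, 2.22 and 60.6 TPM in the CPF libraries. It rose by 4.56 ± 0.73 (adjusted p = 0.00755, limma), a call lost without the E12.5 CPF library (adjusted p = 0.0882). Sult1b1, which acts on thyroid hormones, stood at 0.248, 1.86, 2.23 and 3.60 TPM in the DMSO and 0.350, 0.760, 2.09 and 7.12 TPM in the CPF libraries. It rose by 2.24 ± 0.44 (adjusted p = 0.00819, limma), which was lost without the E18.5 CPF library (0.0718) or with no filter (0.0526). Sult1b1, Sult1d1 and Sult1e1 adjoin the Ugt2 genes on chromosome 5, in a stretch (chr5:86889770-87591611, GRCm38) with 13 of the 66 genes. Of these 9 were tested and 6 rose, against 4.67% of all tested genes. This count leans towards rises, because Sult1b1, Sult1d1 and 5 of the 6 tested Ugt2b genes were under 1 TPM in both E12.5 libraries.

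Sult1a1, the main phenol sulfotransferase, was present from the start, at 8.32, 19.1, 13.7 and 15.7 TPM in the DMSO and 14.4, 18.2, 16.9 and 27.0 TPM in the CPF libraries, and its stage difference of 0.85 ± 0.37 was not called (adjusted p = 0.180, limma). Sult5a1 was not called either, at 6.42, 5.80, 7.70 and 9.21 TPM in the DMSO and 6.47, 4.64, 9.48 and 7.43 TPM in the CPF libraries (0.32 ± 0.39 with stage, adjusted p = 0.659, limma). Sult1e1, the estrogen sulfotransferase, ranged over 0.129 to 3.00 TPM, Sult2b1, which acts on cholesterol, over 1.29 to 2.15, Sult4a1, known from brain, over 0.132 to 4.35 and Sult6b1 over 0.705 to 2.39. None of these was called. The 8 Sult2a genes, hydroxysteroid sulfotransferases of the adult liver, were all listed at or under 0.760 TPM in every library, Sult2a2 and Sult2a4 at 0 throughout. In Sult2a1, Sult2a2, Sult2a4 and Sult2a5, 55.6, 74.5, 47.0 and 51.1% of 31-base words occur in other genes, so their low values are uncertain. The share was 27.4% in Sult2a3, 15.7% in Sult2a6, 0.231% in Sult2a7 and 0% in Sult2a8. Sult3a1 reached 1.02 TPM and Sult1c1 0.312.

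The GST genes gave the most RNA of the 4 families at every stage, and none of the 5 with the highest means was called between E12.5 and E18.5. Gsta4, which conjugates the lipid peroxidation product 4-hydroxynonenal, stood at 174, 195, 159 and 179.8 TPM in the DMSO and 201, 196, 282 and 186 TPM in the CPF libraries. The E16.5 CPF library was the highest and the other 7 lay between 159 and 201 TPM. The stage difference was -0.03 ± 0.30 (adjusted p = 0.962, limma). Gstm5, of the mu class, stood at 121, 239, 158 and 145 TPM in the DMSO and 208, 217, 148 and 144 TPM in the CPF libraries (-0.13 ± 0.31 with stage, adjusted p = 0.832, limma). Its promoter is the one shown with an antioxidant core.

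Gstp1, the pi-class form that is common in embryonic tissues, stood at 154, 129, 121 and 83.3 TPM in the DMSO and 90.7, 62.3, 169 and 104 TPM in the CPF libraries. Its stage difference was -0.35 ± 0.38 and not called (adjusted p = 0.615, limma), with -0.88 in the DMSO and 0.19 in the CPF libraries. Its copy Gstp2 reached 0.648 TPM, and the 2 share most of their sequence, so reads may be split between them. Gsto1, an omega-class thioltransferase, stood at 99.5, 74.4, 67.6 and 62.0 TPM in the DMSO and 87.4, 76.5, 181 and 131 TPM in the CPF libraries, with a stage difference of -0.04 ± 0.39 (adjusted p = 0.960). Gstk1, the mitochondrial and peroxisomal kappa form, stood at 32.5, 39.6, 37.9 and 28.1 TPM in the DMSO and 40.9, 32.1, 30.8 and 44.5 TPM in the CPF libraries, a difference of -0.04 ± 0.35 (adjusted p = 0.958). The small stage differences of Gsta4, Gstm5, Gsto1 and Gstk1 had the opposite sign when TPM was rescaled to coding transcripts, between 0.11 and 0.21, and were not called there either.

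Of the GST genes 3 rose. Gsta2, an alpha-class form known from liver and proximal tubule, stood at 0, 0.464, 16.6 and 33.7 TPM in the DMSO libraries, by stage, and at 0.594, 3.55, 7.54 and 181 TPM in the CPF libraries. In the E18.5 CPF library it came level with Gsta4 (181 and 186 TPM). It rose by 5.98 ± 0.71 (adjusted p = 0.00153, limma), a call lost without the E12.5 CPF library (adjusted p = 0.0568). Gsta1, whose 31-base words are 92.2% shared with other genes, was at most 0.852 TPM in 7 libraries and 5.01 TPM in the E18.5 CPF library, so the division of reads among alpha-class copies is uncertain.

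The theta-class genes Gstt2 and Gstt3 also rose. Gstt2 stood at 7.19, 9.95, 17.7 and 17.3 TPM in the DMSO and 7.39, 14.2, 15.1 and 38.9 TPM in the CPF libraries, a rise of 1.71 ± 0.41 (adjusted p = 0.0222, limma). Gstt3 stood at 8.23, 12.4, 13.5 and 16.4 TPM in the DMSO and 7.34, 11.9, 26.7 and 34.9 TPM in the CPF libraries, a rise of 1.51 ± 0.41 (adjusted p = 0.0414, limma). Both calls were lost without the E12.5 CPF library (adjusted p = 0.108 and 0.211), without the E18.5 CPF library (0.0924 and 0.1397) and with no filter (0.0927 and 0.135). The call of Gstt3 was also lost without the E16.5 CPF (0.0610) or E16.5 DMSO library (0.0596). Their neighbour Gstt1 stood at 3.90, 11.7, 9.06 and 14.52 TPM in the DMSO and 8.21, 23.7, 23.3 and 14.47 TPM in the CPF libraries and was not called (1.21 ± 0.41, adjusted p = 0.0884, limma).

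None of the 5 tested mu-class genes, which lie together at chr3:107895854-108045179 (GRCm38), was called for a change with stage. The largest of their differences was that of Gstm2, 1.13 ± 0.40 (adjusted p = 0.102, limma). Gstm1 stood at 22.5, 18.51, 14.9 and 26.0 TPM in the DMSO and 21.0, 44.7, 75.1 and 54.2 TPM in the CPF libraries. The CPF library was above every DMSO library at E14.5, E16.5 and E18.5 and below its own pair at E12.5. Gstm2 stood at 22.5, 25.3, 30.2 and 34.6 TPM in the DMSO and 17.8, 69.4, 51.5 and 58.2 TPM in the CPF libraries, with the same 3 stages higher in CPF. The CPF minus DMSO difference was 1.11 ± 0.33 for Gstm1 (adjusted p = 0.244, limma) and 0.65 ± 0.28 for Gstm2 (0.485), and Gstm1 passed without the E12.5 pair (adjusted p = 0.0211). Gstm7 stood at 27.1, 10.4, 12.6 and 9.12 TPM in the DMSO and 18.1, 18.4, 27.7 and 12.2 TPM in the CPF libraries, and its stage difference, -1.01 ± 0.43, was the lowest of the 37 (adjusted p = 0.167, limma). Gstm6 ranged over 0 to 16.3 TPM and was highest in the E14.5 CPF library. Gstm3 reached 4.07 TPM in the E16.5 CPF library, Gstm4 0.817, Gsta3 0.402, Gsto2 0.473 and Gstt4 0.351 TPM at most.

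Across the 4 stages 0 of the 37 tested genes were called between CPF and DMSO by limma, while 0.154% of all tested genes were called higher and 0.00731% lower in CPF. At an unadjusted p under 0.05 there were 9 of the 37 genes, and 1306 of the 13677. The median CPF minus DMSO difference was 0.42 over the 37 genes and 0.15 over all tested genes, and 33 of the 37 and 9934 of all 13677 genes lay above 0. Rescaling to coding transcripts moved the median of all genes to -0.0046. As deposited, without that rescaling, the median by family was 1.49 for FMO, 0.44 for GST, 0.30 for SULT and 0.37 for UGT genes, beside the 0.15 of all genes. Ugt2b34 was called under a pseudocount of 0.1 (adjusted p = 0.0336), among genes with at least 5 TPM in 2 libraries (0.0249), and without the E12.5 or the E14.5 pair (0.0453 and 0.0275). These were 4 of 12 alternative settings.

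CPF was above DMSO at all 4 stages in 8 of the 37 genes, against the 13.8% of all tested genes, and below it at all 4 stages in 0, against 3%. The 8 were Fmo1, Fmo2, Fmo4, Gsta4, Sult6b1, Ugt1a7c, Ugt2b34 and Ugt2b35. Some of these gaps were near 0, so that their sign means little. Ugt2b35 had about 0.996 reads in CPF and 0 in DMSO at E12.5, and 0.997 and 0.996 at E18.5. At E14.5 Gsta4 stood at 195.7 TPM in CPF and 195.3 in DMSO, and Sult6b1 at 1.876 and 1.869. With TPM rescaled to coding transcripts 5 of the 8 were left, Fmo1, Fmo2, Fmo4, Ugt2b34 and Ugt2b35, and the share of all tested genes was 8.78%. Over all genes that rescaling moved the share of CPF-higher genes among those with 1 sign at all stages from 82.1 to 47.8%.

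Stage by stage, with 1 library on each side and no test, differences of more than 1 on the log2(TPM + 1) scale were counted. At E12.5, a day after the last dose, CPF was higher by more than this in 3 genes, Fmo1, Fmo2 and Sult1e1, against 6.04% of all tested genes, and lower in 0, against 2.5%. At E14.5 it was higher in 8 (6.18% of all genes) and lower in Gstp1 alone (2.16%). The 8 were Gsta2, Gstm1, Gstm2, Gstm6, Sult4a1, Ugt2b34, Ugt2b35 and Ugt2b5.

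At E16.5 CPF was higher in 9 genes (7.44% of all genes), namely Gstm1, Gstm6, Gstm7, Gsto1, Gstt1, Sult4a1, Ugt2b34, Ugt2b35 and Ugt2b36. It was lower in 4 (3.2%), namely Gsta2, Sult1e1, Ugt2b5 and Ugt2b37, of which all but Sult1e1 rose with stage. At E18.5 it was higher in 13 (20.4%) and lower in 0 (2.02%). The 13 were Fmo1, Fmo2, Fmo4, Gsta2, Gstm1, Gsto1, Gstt2, Gstt3, Sult1c2, Ugt1a2, Ugt1a6a, Ugt1a6b and Ugt1a10. After rescaling to coding transcripts the E18.5 count was 8 higher and 1 lower (Ugt2b37), against 10.1% of all tested genes higher. The E16.5 count was then 8 higher and 5 lower, against 6.68% higher. The share of higher among all genes past the threshold went from 91.0 to 68.9% at E18.5 and from 70.0 to 55.4% at E16.5. Gsta2, Ugt2b5 and Ugt2b37 were thus higher in CPF at E14.5 and lower at E16.5.

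**Figure D5:**
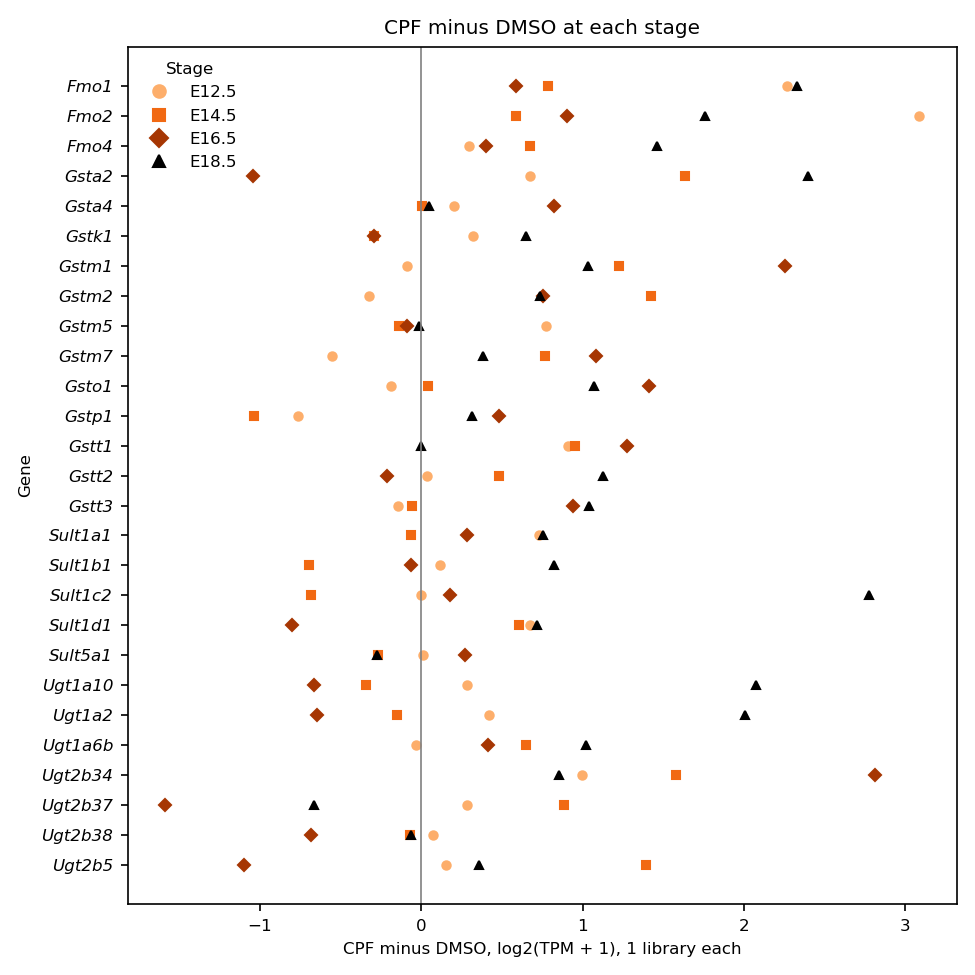
CPF minus DMSO on the log2(TPM + 1) scale at each stage, 1 library on each side, for the tested genes whose levels are given in every library. Fmo2 and Fmo1 are furthest right at E12.5, Ugt2b34 and Gstm1 at E16.5, Sult1c2, Gsta2 and Fmo1 at E18.5, and Ugt2b37 is furthest left at E16.5.

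No gene was called for a different course over embryonic day in the agents: 0 of the 37 and 0% of the 13677 genes passed for the slope by limma, with 3 of the 37 and 3615 of all genes at an unadjusted p under 0.05. The lowest adjusted p among the 37 was that of Gstt3, whose level climbed by 0.23 ± 0.07 more per day in CPF (adjusted p = 0.133, limma).

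Proximal tubule markers also rose with stage, and their sum was lower in CPF at E12.5 and E16.5 and higher at E14.5 and E18.5. The 12 markers summed to 12.4, 44.5, 356 and 723 TPM in the DMSO and 11.7, 84.3, 321 and 3785 TPM in the CPF libraries by stage, and 10 of 10 tested rose with stage (median 6.04). Lrp2, the endocytic receptor megalin, stood at 9.91, 10.8, 106 and 211 TPM in the DMSO and 5.84, 15.1, 83.1 and 1197 TPM in the CPF libraries. In CPF minus DMSO 10 of 10 lay above 0 (median 0.64) and 0 were called. Slc22a8, one of the genes with several transcripts, was at 0 throughout, and 4 of the 12 were at 0 in each E12.5 library. The part of tubule content in the enzyme values was not tested.

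The next list holds genes that supply the conjugation reactions. Of 15 genes for cofactor supply and glutathione 11 were tested, 2 rose with stage and 0 fell. Ggt1, the brush border enzyme that starts the breakdown of glutathione conjugates, stood at 2.48, 4.41, 63.8 and 106 TPM in the DMSO and 2.56, 5.61, 75.6 and 639.8 TPM in the CPF libraries and rose by 6.22 ± 0.57 (adjusted p = 0.000316, limma). Gclm, a subunit of the enzyme that limits glutathione synthesis, stood at 18.9, 22.3, 34.7 and 41.6 TPM in the DMSO and 31.8, 58.3, 55.1 and 133 TPM in the CPF libraries and rose by 1.56 ± 0.34 (adjusted p = 0.0151). Gclm was higher in CPF at all 4 stages, but the difference of 1.09 ± 0.24 was not called (adjusted p = 0.109, limma). Ugdh, which makes UDP-glucuronic acid, was not called, at 72.9, 75.6, 77.4 and 56.9 TPM in the DMSO and 72.3, 73.5, 94.8 and 115 TPM in the CPF libraries (0.16 ± 0.32 with stage, adjusted p = 0.805). Slc35b2, which carries PAPS into the Golgi, differed by -0.16 ± 0.32 with stage (adjusted p = 0.803, limma). The PAPS synthase genes Papss1 and Papss2 have several transcripts in the files and were not tested, so PAPS synthesis is not covered.

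Of 18 other conjugating or oxidising enzymes in the files 15 were tested, and Ephx1, Inmt and Ugt8a rose with stage. Ephx1, microsomal epoxide hydrolase, stood at 0.680, 4.81, 4.10 and 4.83 TPM in the DMSO and 1.03, 5.73, 10.7 and 26.0 TPM in the CPF libraries and rose by 2.76 ± 0.51 (adjusted p = 0.00553, limma). The membrane-bound glutathione transferase Mgst3 had the lowest adjusted p for CPF minus DMSO in this list (1.04 ± 0.21, adjusted p = 0.0799, limma), with 50.3, 77.6, 69.9 and 76.6 TPM in the DMSO and 73.2, 171, 176 and 175 TPM in the CPF libraries. CPF was the higher at every stage. Of 9 exporters of conjugates 8 were tested, and Abcc2, the apical pump of proximal tubule cells, and Abcc3 rose with stage, by 3.87 ± 0.51 and 1.76 ± 0.43 (adjusted p = 0.000682 and 0.0261, limma).

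Of 15 regulators of these genes 11 were tested, and Ahr, the aryl hydrocarbon receptor, and Hnf4a rose with stage. Hnf4a, a transcription factor of proximal tubule and liver, stood at 0.0370, 5.88, 28.5 and 28.0 TPM in the DMSO and 0.742, 13.2, 55.9 and 182 TPM in the CPF libraries and rose by 5.76 ± 0.47 (adjusted p = 3.58e-05, limma). Nfe2l2, the gene of NRF2, was at 55.2, 62.0, 70.0 and 58.7 TPM in the DMSO and 54.9, 84.3, 89.5 and 119 TPM in the CPF libraries. Of 10 NRF2 target genes, all tested, 1 rose with stage (Gclm) and 0 fell. No gene in these 5 lists was called for CPF minus DMSO. Nqo1, a target often used to read NRF2 activity, differed by 0.51 ± 0.26 (adjusted p = 0.577, limma), with 8.59, 12.3, 10.3 and 10.6 TPM in the DMSO and 12.7, 16.4, 18.8 and 13.9 TPM in the CPF libraries.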

How the data were processed

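The 8 libraries were made from 2 μg each of total RNA of embryonic kidney, per the labels' protocols. Trimmomatic, STAR and the mm10 build are named in the submitters' processing notes, without versions, and no source used here says how reads were shared among transcripts. The values deposited by the authors are TPM for 32862 RefSeq transcripts in each library. Transcripts were summed per symbol into 24151 genes, 52 symbols stored as dates were restored through their RefSeq accessions, and coordinates come from RefSeq on GRCm38.

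The plan named a count test in case the files held counts. As they hold TPM, limma 3.58.1 (R 4.3.3) was run with a mean-variance trend and robust moderation on log2(TPM + 1), for genes with at least 1 TPM in at least 2 libraries. The first fit held stage and agent (residual degrees of freedom 3), and the second a slope per agent (4). The procedure was tested on simulated data. Sequence sharing was counted in 31-base words of GENCODE M21 transcripts. TPM keeps no depth, so reads were estimated from the steps between low values and cover counting only.

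The 66 genes, the gene lists and the tests were chosen with earlier results of these data known. Genes averaging 5 TPM or more, or called, are given in every library, those averaging 1 TPM or more as a range, and the others by their highest value. The values of some genes are not reported here. The libraries in which Ugt2b35, Ugt2b36, Ugt3a2, Gsta1 and Gstm3 were highest were picked out after their values were seen. Alternatives were quantile normalization, rescaling to coding transcripts, a pseudocount of 0.1, no filter or a filter of 5 TPM, the highest transcript per gene, a linear stage term, and leaving out libraries or stage pairs.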

Additional observations from a re-analysis of the deposited data

How the results depend on the processing

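Without replicates within a stage, the counts of genes called over all genes depend on the settings. For CPF minus DMSO the 22 genes became 0 with quantile normalization, 1 with coding rescaling, 83 with a pseudocount of 0.1, 0 with no filter, 98 with a filter of 5 TPM and 0 with embryonic day as a linear term, and ranged from 25 to 222 with 1 stage pair left out, the highest without E14.5. For E18.5 minus E12.5 the 1149 genes became 394 with no filter and ranged from 608 (without E12.5 CPF) to 1637 (without E18.5 DMSO) with 1 library left out; without E18.5 CPF there were 697. The slope gave 0 genes in all settings. Fmo1, Sult1d1, Ugt1a2, Ugt1a10, Ugt2b5, Ugt2b34 and Ugt2b37 rose with stage whichever single library was left out, and Ugt2b34 was lost with no filter and with embryonic day as a linear term. The cause of these shifts was not tested. The stage term pairs each CPF library with the DMSO library of its stage, and with 1 library per stage and agent no replicate number gives a further pairing.

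Small differences changed sign. For CPF minus DMSO, quantile normalization gave -0.077 for Gstk1, -0.053 for Gstm5, -0.30 for Sult1b1 and -0.11 for Ugt2b5. Coding rescaling gave -0.079 for Gstk1, -0.045 for Gstm5 and -0.12 for Sult1b1. A pseudocount of 0.1 gave 0.13 for Ugt2b37, and leaving out the E14.5 and E16.5 pairs gave -0.089 for Gstm7 and 0.0043 for Ugt2b38. For the stage, quantile normalization gave 0.20 for Gsta4, 0.14 for Gstk1, 0.13 for Gstm5 and 0.21 for Gsto1, and coding rescaling gave 0.21, 0.20, 0.11 and 0.20. With 1 stage pair left out, CPF minus DMSO ranged over -0.088 to 0.22 for Gstk1, -0.082 to 0.22 for Gstm5, -0.49 to 0.012 for Gstp1, -0.22 to 0.29 for Sult1b1, -0.17 to 0.99 for Sult1c2, -0.18 to 0.0029 for Sult5a1, -0.13 to 0.76 for Ugt1a2, -0.24 to 0.67 for Ugt1a10, -0.20 to 0.63 for Ugt2b5 and -0.66 to 0.17 for Ugt2b37. With 1 library left out, the stage difference ranged over -0.18 to 0.11 for Gsta4, -0.41 to 0.32 for Gstk1, -0.034 to 1.56 for Gstm1, -0.56 to 0.30 for Gstm5, -0.56 to 0.47 for Gsto1 and -0.72 to 0.030 for Gstp1. None of the differences that changed sign was called in any of these settings, apart from Gstm1 with stage without the E12.5 DMSO library.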
